A study of Mus musculus with 6 samples.

Results

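The genes described here encode the proteins of the cytosolic ribosome. A gene was taken as a member when it was protein-coding and its mouse symbol was Rpl or Rps followed by a number, Rpsa, or Rplp0 to Rplp2, and the 10 Rps6k kinases, which carry a similar symbol, were left out. The rule found 85 of the 54838 genes in the table, 33 for the small subunit and 52 for the large subunit. Among these 85, 8 are paralogs with a parent gene that is also a member (Rpl3l, Rpl7l1, Rpl10l, Rpl22l1, Rpl36al, Rpl39l, Rps27l and Rps27rt), and 77 are not. A further 6 protein-coding genes with "-ps" in the symbol, copies of ribosomal protein genes, were kept apart.

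RNA was taken from the hippocampi of 3 wild-type and 3 FVB/NJ-Tg(Orai1)Ibd females at 7 months of age, and polyadenylated RNA of each mouse gave 1 library. The transgenic line carries human ORAI1 cDNA in a mouse Thy-1.2 cassette, which drives expression in neurons. It is a single line, and glia and vessels of the hippocampus are not targeted by the promoter. The comparison asked how the transcriptome of the transgenic hippocampus differs from that of wild-type mice. The libraries held 37710188 to 52497799 counts in wild-type and 37414241 to 47027279 in transgenic mice. Levels of a gene across libraries are given in CPM, counts divided by the library size after TMM scaling. Mouse Orai1 had a mean of 7.47 CPM in the wild-type and of 320 CPM in the transgenic libraries, and Thy1, whose sequences flank the transgene, means of 640 and 4037 CPM. For both genes every transgenic value lay above every wild-type value, as the labels require. Markers of hippocampal neurons (Snap25, Syt1, Slc17a7, Neurod6, Prox1, C1ql2, Wfs1, Calb1) were present in each library. Their summed level was 5039 to 5207 CPM in wild-type and 5209 to 5319 CPM in transgenic libraries. The libraries also differed in a way that genotype does not give. Over 11191 genes the deviations of wild-type 3 from its genotype mean went with those of transgenic 2 and 3 (Pearson r across genes 0.536 and 0.388) and against those of transgenic 1 (-0.588), which went with wild-type 1 and 2 (0.40 for both). Gfap, an astrocyte marker, was at 323, 355 and 836 CPM in wild-type and at 386, 922 and 840 CPM in transgenic mice. C1ql2, a marker of dentate granule cells, split the libraries in the same way (26.2, 24.7 and 52.3 against 33.8, 69.6 and 68.8 CPM).

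Each ribosome is built from a small subunit, which holds the mRNA and reads its codons, and a large subunit, which joins amino acids and releases the new chain through an exit tunnel. The subunits contain 1 copy of most of their proteins, so the cell needs these proteins in similar amounts. In vertebrates their mRNAs are abundant and short, and typically start with a C followed by a run of pyrimidines, the 5' terminal oligopyrimidine (TOP) tract, through which mTOR signalling controls their translation. Neurons carry ribosomes in the cell body and in dendrites, where local translation serves synaptic plasticity.

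The tract was searched at the annotated start sites. Of the 85 members, 65 had an entry in the RefSeq promoter table of GRCm38.p6 (25 small, 40 large). A C with at least 4 more pyrimidines stood exactly at the annotated start of 13 of the 65 (20%) and within 5 bases of it in 29 (44.6%), against 2.49% and 18.5% of all 27025 promoters. The windows below run from 20 bases before to 10 bases after the start, with the pyrimidine tract in capitals as far as the window shows it. They were chosen to set members with a tract beside members without one, and members with a large change beside members with a small one.
Rps6 (chr4:86857358-86857387, minus strand): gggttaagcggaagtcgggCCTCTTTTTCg
Rps21 (chr2:180257359-180257388, plus strand): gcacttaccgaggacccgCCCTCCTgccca
Rplp2 (chr7:141447631-141447660, plus strand): cccactgcgtcagcgtCTTCCTTTCgccgc
Rpl35 (chr2:39005122-39005151, minus strand): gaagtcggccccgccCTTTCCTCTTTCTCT
Rps18 (chr17:33955656-33955685, minus strand): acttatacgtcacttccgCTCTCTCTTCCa
Rpl15 (chr14:18270977-18271006, minus strand): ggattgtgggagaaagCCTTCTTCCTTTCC
Rpl10a (chr17:28328451-28328480, plus strand): gcgtggtggcgcccccccagcggccgcaaa
Rpl4 (chr9:64173367-64173396, plus strand): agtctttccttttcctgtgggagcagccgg
The annotated start of a gene is 1 position of several that may be used. A missing tract therefore describes the search within 5 bases of that start only. Rpl4 and Rpl10a, for instance, each have a pyrimidine run in their windows some bases before the position that RefSeq gives as the start.

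Other motifs were searched over 250 bases before to 50 bases after the start, on both strands. CCGGAAG, a core that ETS factors bind, was in 25 of the 65 members (38.5%) and 9.12% of all promoters. AAGATGGCG, a motif of YY1, was in 4 (6.15%) against 1.49%, while TATAAA, the TATA box, was in 6 (9.23%) against 14.2%. The small and the large subunit held CCGGAAG in 11 of 25 and 14 of 40 promoters. A match of letters says nothing about binding in these mice.

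In wild-type hippocampus the level of a member was compared per length, as FPKM (like CPM but by the library total without TMM scaling, and per kb of gene). The small subunit genes that are not paralogs had a median of 69.5 FPKM (1.64 to 363, 31 genes) and those of the large subunit a median of 69.4 FPKM (7.27 to 623, 46 genes). Between the first and the third quartile the levels differed 2.39-fold in the small and 2.49-fold in the large subunit. The deposited length joins all annotated exons of a gene and is often far longer than the mRNA. With the length of the principal mRNA in its place, a scale added after the data were seen, the small subunit median (193 FPKM) lay above that of the large subunit (164 FPKM), and the ratios of the quartiles were 1.64 and 2.12. Orders of the genes on these scales had a Spearman rho of 0.701 over the 77 genes.

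Rplp1, which with Rplp2 forms the flexible stalk that recruits elongation factors, was the member with the highest FPKM on both scales. It stood at 603, 653 and 612 FPKM in wild-type and at 807, 741 and 742 FPKM in transgenic mice. In the large subunit Rpl17 (286 FPKM), a protein of the tunnel wall, and Rpl36 (253 FPKM) followed in wild-type mice by deposited length, and Rpl41 (371 FPKM) and Rpl9 (356 FPKM) by mRNA length. Rps15 led the small subunit with 350, 366 and 373 FPKM in wild-type and 459, 428 and 470 FPKM in transgenic mice, and Rps29 (254 FPKM) and Rps3a1 (222 FPKM) came next by deposited length, where by mRNA length Rps29 (450.5 FPKM) and Rps27 (378 FPKM) did. For Rps15 and Rplp1 every transgenic value lay above every wild-type value. When members were ordered by wild-type FPKM, the ranges of the 3 wild-type values overlapped in 16 of 32 neighbouring pairs of the small and 33 of 51 of the large subunit, so close ranks were often not distinct.

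**Figure D1:**
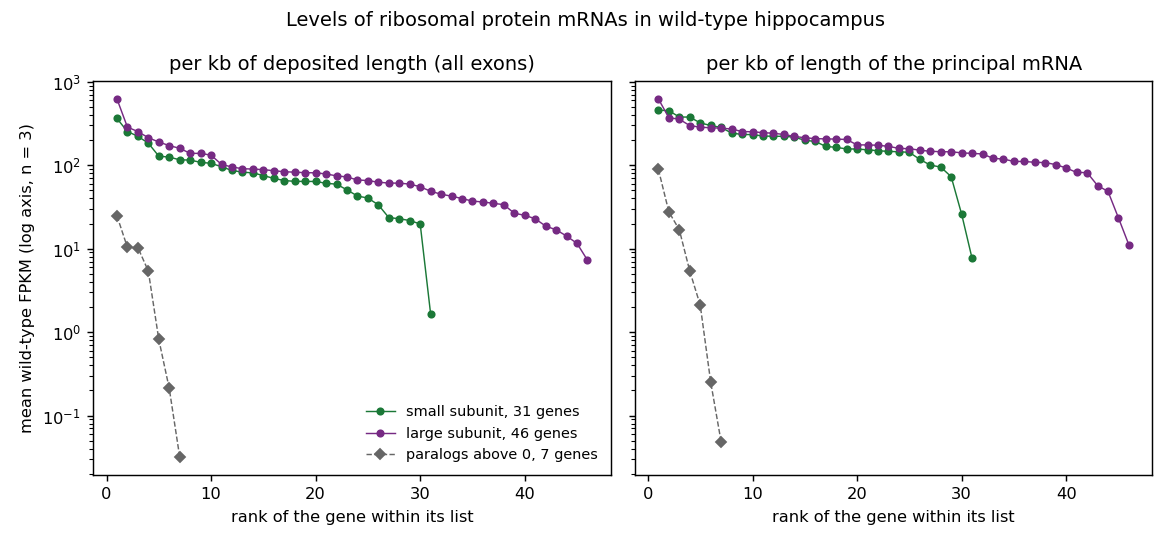
Mean wild-type FPKM (log axis, n = 3 mice) against rank, with the 31 small subunit genes in green, the 46 large subunit genes in purple and the 7 paralogs above 0 in grey, per kb of the deposited length (left) and of the principal mRNA (right). The medians of the subunits are 69.5 and 69.4 FPKM on the left and 193 and 164 FPKM on the right, and the paralogs lie below most of both.

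The lowest of the 77 were Rps10 with 1.64 FPKM, a protein of the beak of the small subunit, and Rpl24 (7.27 FPKM) and Rpl13a (11.6 FPKM) in the large subunit. Rps10 had 199, 170 and 135 counts in wild-type and 208, 137 and 140 in transgenic mice. The exons of the principal mRNAs of these genes are overlapped on the same strand by another annotated gene over 91.6% (Rps10), 71.5% (Rpl24) and 59.3% (Rpl13a) of their length. The recorded counting command did not assign fragments that fit more than 1 gene. Levels of these 3 genes are therefore uncertain, and what the overlap takes from them was not tested. The paralog Rpl36al had an overlap of 63.1%.

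Members with near copies elsewhere in the genome are uncertain in the same way. The reads were 76 bases long, and the 76-base windows of each gene's principal mRNA were searched in the transcripts of other genes. Over the 77 genes that are not paralogs a median of 48.6% of the windows also occurred there, from 0% in Rps3 to 98.5% in Rps27. Sharing genes included 663 pseudogenes, and 130 of these had enough counts to be tested. Their median log2 fold change was 0.253, and 8 of the 130 (6.15%) were higher with an adjusted p under 0.05, where 3.1% of all genes tested were. With the GC or the length trend removed 3 and 1 of the 130 were higher, where 0.844% and 2.13% of all genes were. The share of the pseudogenes was thus below that of all genes with the length trend removed.

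Transgenic mice had more ribosomal protein mRNA relative to the library total. Members took 1.04%, 1.10% and 1.11% of all counts in the 3 wild-type and 1.28%, 1.27% and 1.29% in the 3 transgenic libraries. The small subunit made up 0.440% ± 0.017 of the counts in wild-type and 0.521% ± 0.005 in transgenic mice (SD, n = 3), and the large subunit 0.643% ± 0.023 and 0.758% ± 0.007. In both subunits the highest wild-type share lay below the lowest transgenic share. The ratio of large to small subunit counts was 1.466, 1.456 and 1.462 in wild-type and 1.456, 1.457 and 1.454 in transgenic mice, a change of the mean by a factor of 0.996. Summed FPKM gave a ratio of 1.52 in both genotypes. These shares are relative to the library, and more mRNA per cell, more of the cells rich in it and less of other RNA cannot be told apart in bulk tissue.

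With edgeR's quasi-likelihood test over all 19087 genes tested and Benjamini-Hochberg adjustment, 59 of the 83 members tested were higher in transgenic mice with an adjusted p under 0.05 and 0 were lower. Over all genes tested, 3.1% were higher, 4.0% lower and 7.1% changed in either direction by this rule. The log2 fold changes of the members ran from -0.14 to 0.34 with a median of 0.25, where all genes tested had a median of -0.01. In 77 of the 83 members every transgenic value lay above every wild-type value, which held for 16.9% of all genes tested, and in 0 members every transgenic value lay below, against 17.9% of all genes tested. For 74 members, and 13.0% of all genes tested, the value was higher with an unadjusted p under 0.05. DESeq2's Wald test called 70 members (5.53% of all genes) and limma-voom 54 (2.88%) higher, and neither called a member lower.

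Genes of both subunits rose. In the small subunit 24 of 33 genes rose and the median log2 fold change was 0.24, and in the large subunit 35 of 50 rose and the median was 0.25. Without the paralogs 24 of 31 (77.4%) and 35 of 46 (76.1%) rose, and the medians were 0.24 and 0.26. All 77 genes that are not paralogs had a log2 fold change above 0, between 0.05 and 0.34, under each scaling tried, and only Rps10 turned below 0 in another fit (-0.04 with the GC trend removed and -0.05 without transgenic 1).

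**Figure D2:**
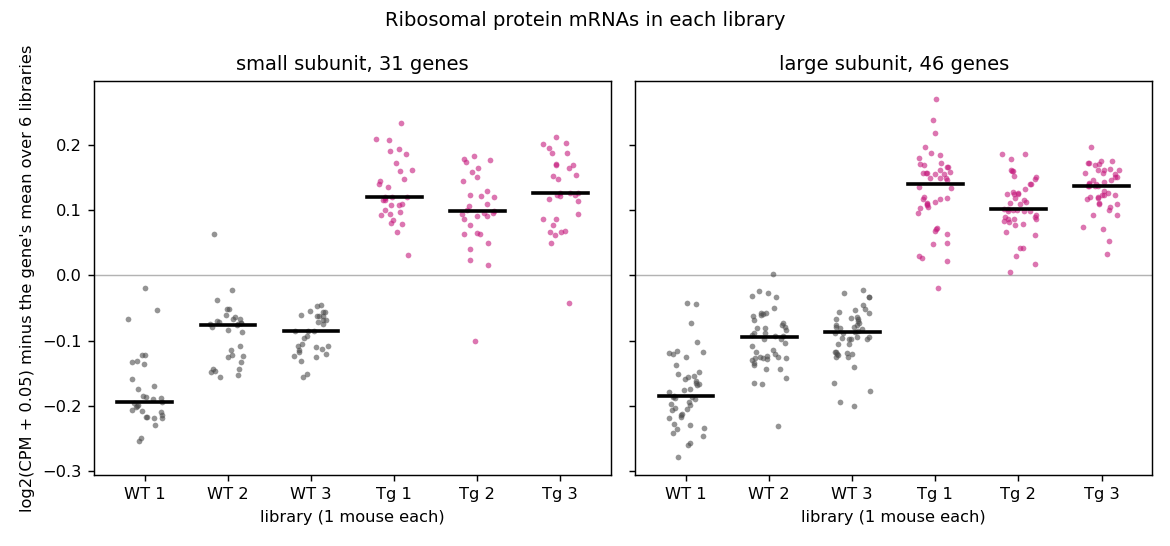
Each point is 1 ribosomal protein gene in 1 library, as log2(CPM + 0.05) minus its mean over the 6 libraries, for the 31 small and 46 large subunit genes that are not paralogs, with the median of each library as a bar. The medians of the wild-type libraries lie between -0.19 and -0.08 and those of the transgenic libraries between 0.10 and 0.14, and wild-type 1 is the lowest library in both panels.

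The libraries of 1 genotype were not equal. Wild-type 1 had a median deviation of -0.19 in the small and -0.19 in the large subunit, while wild-type 2 (-0.08 and -0.10) and wild-type 3 (-0.09 and -0.09) were closer to the mean. Transgenic libraries stood at 0.12, 0.10 and 0.13 in the small and at 0.14, 0.10 and 0.14 in the large subunit. All transgenic medians lay above all wild-type ones, so any split of the libraries, also that seen with Gfap, would give this order. The part of that split in the members' change was not tested. The calls depended on single mice. Without wild-type 1, wild-type 2 or transgenic 3, 0 of the 83 members had an adjusted p under 0.05 in edgeR's test, and without transgenic 2 it was 4, while the genes called higher over the whole table fell from 591 to 11, 13, 19 and 62 in these fits. In the 6 fits with a mouse left out, between 73 and 75 members had an unadjusted p under 0.05 in the higher direction, where 9.61% to 13.3% of all genes tested did, and the median log2 fold change was between 0.23 and 0.28.

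Among small subunit genes the largest changes were those of Rps9, Rps15 and Rps21. Rps9, which binds early to the assembling small subunit, was at 169, 176 and 181 CPM in wild-type and at 212, 222 and 225 CPM in transgenic mice (log2 fold change 0.33 ± 0.05, SE, adjusted p = 0.0176, edgeR). Rps15 rose by 0.32 ± 0.05 on the log2 scale (adjusted p = 0.0222, edgeR) from 221, 231 and 234 to 292, 269 and 296 CPM. Rps21 went from 141, 153 and 152 to 186, 177 and 189 CPM (log2 fold change 0.31 ± 0.05, adjusted p = 0.0242, edgeR). In all 3 the groups did not overlap, and the gain was 1.25-fold for Rps9 and Rps15 and 1.24-fold for Rps21. This order depended on the fit. With the trend on GC content removed from each library, Rps15 fell to 0.20 (adjusted p = 0.0885, edgeR) and the largest values were those of Rps20 (0.40), Rps4x (0.38) and Rps24 (0.34). With the trend on length removed, Rps15 (adjusted p = 0.0578) and Rps21 (adjusted p = 0.0515) did not pass edgeR's test. At the other end, Rps18 was at 53.0, 53.0 and 53.5 CPM in wild-type and at 56.8, 59.2 and 58.2 CPM in transgenic mice, and Rps15a at 145, 145 and 139 and at 159, 153 and 163 CPM. Both had transgenic values that lay above the wild-type ones, with log2 fold changes of 0.13 (adjusted p = 0.102, edgeR) and 0.14 (adjusted p = 0.0860, edgeR) that missed the threshold. Rps10, with its low count, overlapped between the genotypes, with 3.80, 4.03 and 3.57 CPM against 4.46, 3.59 and 3.74 CPM.

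In the large subunit Rpl29, Rpl10a and Rpl41 had the largest values. Rpl29 was at 26.1, 30.9 and 27.7 CPM in wild-type and at 38.2, 34.3 and 34.5 CPM in transgenic mice (log2 fold change 0.34 ± 0.08, adjusted p = 0.0463, edgeR). For Rpl10a, whose protein sits in the stalk by which tRNA leaves, 83.6, 90.1 and 90.5 CPM stood against 108, 112 and 110 CPM (0.32 ± 0.05, adjusted p = 0.0176, edgeR). Rpl41, the smallest ribosomal protein, was at 152, 165 and 168 CPM and at 202, 201 and 198 CPM (0.31 ± 0.05, adjusted p = 0.0213, edgeR). None of the 3 overlapped between genotypes, though the SE of Rpl29 was the widest of them. Rpl29 did not pass with the GC trend removed (0.24, adjusted p = 0.121, edgeR) or with the length trend removed (adjusted p = 0.0911, edgeR). With the GC trend removed Rpl10a was at 0.24, and Rpl36a and Rpl10 (both 0.37) had the largest values. Among large subunit genes that are not paralogs, the smallest changes were in Rpl15 and Rpl35a. Rpl15 was at 110, 111 and 112 CPM in wild-type and at 112, 115 and 122 CPM in transgenic mice, and Rpl35a at 49.9, 50.4 and 49.4 and at 54.0, 51.6 and 53.3 CPM. Their log2 fold changes of 0.07 and 0.09 did not pass (adjusted p = 0.378 and 0.240, edgeR), with groups that lay close but apart.

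**Figure D3:**
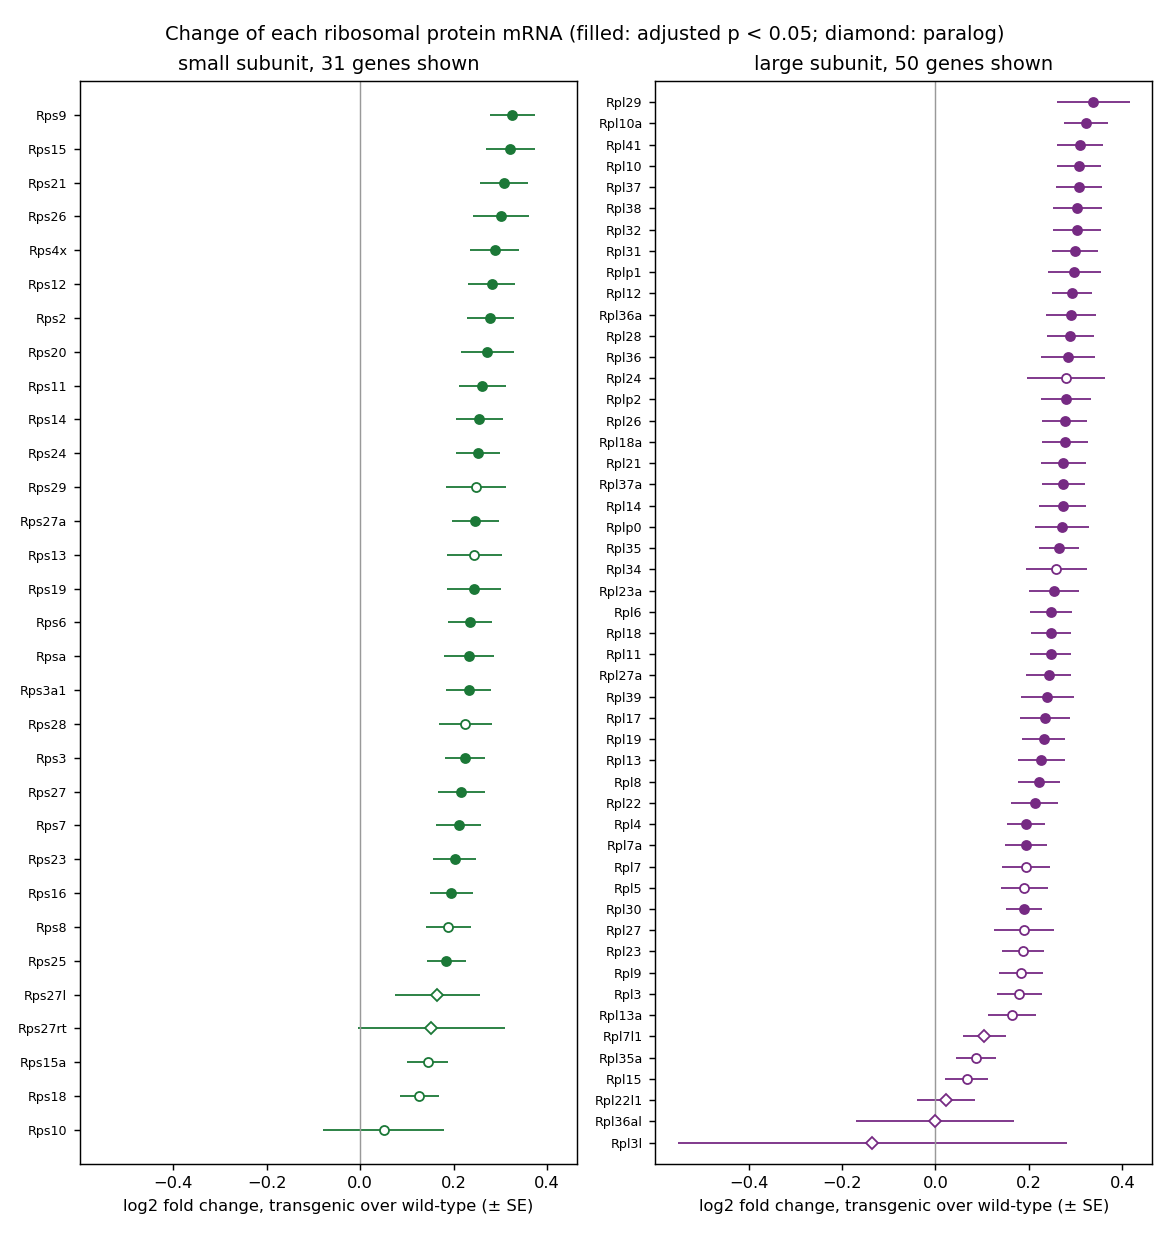
Log2 fold change (transgenic over wild-type) with its SE for 31 of the 33 small subunit genes tested and the 50 of the large subunit, sorted within each subunit. Filled symbols passed an adjusted p of 0.05 (22 of the 24 small subunit genes that passed are shown, and all 35 of the large subunit), diamonds are paralogs, and all estimates lie above 0 except those of Rpl3l (-0.14) and Rpl36al, the last of which turns above 0 with DESeq2's size factors.

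Grouped by place in the ribosome, most groups sat near the common median. Of the 77 members that are not paralogs 76.6% were higher with an adjusted p under 0.05, against 3.1% of all genes tested. With the GC or the length trend removed 36 and 21 of the 77 were, against 0.844% and 2.13% of all genes. The counts of each group here and below stand beside these shares. All 4 genes of the stalk rose (Rplp0, Rplp1, Rplp2 and Rpl12, log2 fold changes 0.27 to 0.30). Rplp0 anchors the P1 and P2 proteins to the large subunit and was at 145, 147 and 159 CPM in wild-type and at 171, 188 and 186 CPM in transgenic mice. Rpl12, at the stalk base, was at 131, 134 and 136 and at 167, 158 and 165 CPM (0.29 ± 0.04, adjusted p = 0.0174, edgeR). It had the smallest adjusted p of all members in this fit. Of the 4, only Rpl12 also passed with the GC or the length trend removed, where the adjusted p of the others ran from 0.0568 to 0.121 and from 0.0508 to 0.101 (edgeR).

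Of the genes of the exit tunnel, through which the new chain leaves, all 3 of the wall (Rpl4, Rpl17, Rpl39, median 0.23) and all 5 of the rim (Rpl19, Rpl23a, Rpl26, Rpl31, Rpl35, median 0.26) rose. With the GC trend removed 3 of 3 and 3 of 5 passed, where 0.844% of all genes were higher. With the length trend removed 0 of each passed, with adjusted p from 0.0512 to 0.116 (edgeR), where 2.13% of all genes were higher. Rpl4, with a long loop that narrows the tunnel, went from 422, 432 and 430 to 489, 486 and 494 CPM. Rpl31 at the rim went from 100, 107 and 104 to 132, 121 and 130 CPM. Next to the peptidyl transferase centre, Rpl10 rose (157, 170 and 172 CPM against 205, 206 and 207 CPM, adjusted p = 0.0199, edgeR), and Rpl3, with 225, 238 and 247 against 264, 267 and 273 CPM, did not pass (adjusted p = 0.0648, edgeR). Rpl5 and Rpl11 bind the 5S rRNA and, outside the ribosome, can hold back the p53 ligase MDM2. Rpl11 rose (129, 128 and 137 against 155, 154 and 159 CPM, adjusted p = 0.0272, and 0.0604 with the GC trend removed, edgeR) while Rpl5 had 163, 163 and 174 against 182, 192 and 197 CPM with an adjusted p of 0.0612 and passed with the GC trend removed (log2 fold change 0.32, adjusted p = 0.0179, edgeR). Neither gene overlapped between genotypes, and that 1 passed and the other did not in a given fit is no test of a difference between them.

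On the small subunit both genes of the mRNA entry site, Rps2 and Rps3, rose with log2 fold changes of 0.28 and 0.22. At the mRNA exit Rpsa, Rps14 and Rps26 rose (0.23, 0.26 and 0.30), and Rps28 (80.7, 89.2 and 91.0 against 104, 98.2 and 103 CPM) had an adjusted p of 0.0558. In the beak Rps12 (0.28) and Rps27a (0.25), which is made as a fusion with ubiquitin, rose, and Rps10 did not pass. Rps6, the substrate of the S6 kinases and a usual readout of mTOR activity as a phosphoprotein, was at 131, 141 and 139 CPM in wild-type and at 158, 162 and 165 CPM in transgenic mice (0.23 ± 0.05, adjusted p = 0.0339, edgeR). With the GC trend removed Rps2, Rpsa, Rps14 and Rps6 did not pass (adjusted p from 0.0696 to 0.106, edgeR), and with the length trend removed neither these 4 nor Rps27a passed. The mRNA level carries no information on phosphorylation. Of 10 genes mutated in Diamond-Blackfan anaemia, a congenital failure of red cell formation, 6 rose, among them Rps19, Rps26 and Rpl11, and others such as Rpl5 and Rpl35a did not pass, where 3.1% of all genes tested were higher. With the GC and the length trend removed 4 and 3 of the 10 were higher, where 0.844% and 2.13% of all genes were. Rps19, the gene most often mutated in that disease, was at 89.5, 95.7 and 92.6 CPM in wild-type and at 115, 102 and 112 CPM in transgenic mice (adjusted p = 0.0477, and 0.118 with the GC trend removed, edgeR).

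Of the 6 paralogs tested 0 passed edgeR's threshold, DESeq2's or limma-voom's, and 0 had an unadjusted p under 0.05. Their median log2 fold change was 0.06, and in 1 of them (16.7%), Rpl7l1, every transgenic value lay above the wild-type values. The same order of values was seen in 16.9% of all genes tested. Of all genes, edgeR called 3.1% higher, DESeq2 5.53% and limma-voom 2.88%, and 13.0% were higher at an unadjusted p below 0.05. Such counts among 6 genes do not set the paralogs apart from genes in general. Rpl10l, a paralog of Rpl10 known from testis, had 0 counts in every library, which allows at most 3 counts per library, and Rpl39l, also known from male germ cells, had 0, 0 and 3 counts in wild-type and 1, 5 and 2 in transgenic mice. Both were below the filter and were not tested. Rpl3l, which replaces Rpl3 in striated muscle, had 21, 8 and 17 counts in wild-type and 20, 12 and 7 in transgenic mice, against which Rpl3 was 363-fold higher per kb of deposited length and 713-fold higher per kb of mRNA in wild-type mice. Both ratios rest on these few counts.

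Rpl22l1 was the paralog nearest in level to its parent. It was at 48.2, 52.6 and 46.8 CPM in wild-type and at 52.3, 47.3 and 50.4 CPM in transgenic mice (log2 fold change 0.02 ± 0.06, adjusted p = 0.848, edgeR), while Rpl22 went from 95.7, 101 and 97.1 to 107, 117 and 116 CPM (0.21 ± 0.05, adjusted p = 0.0472, edgeR). With the GC trend removed the log2 fold changes were 0.20 for Rpl22l1 (adjusted p = 0.250, edgeR) and 0.25 for Rpl22 (adjusted p = 0.0389, edgeR), and with the length trend removed they were -0.02 and 0.19 (adjusted p = 0.912 and 0.0602, edgeR), so the gap between the genes depended on the fit. Rpl22l1 made up 42.4% of the pair per kb of deposited length and 30.1% per kb of mRNA in wild-type mice. The log2 ratio of Rpl22l1 to Rpl22 was -0.44, -0.39 and -0.50 in wild-type and -0.49, -0.76 and -0.66 in transgenic mice, a difference of -0.19 (exact two-sided permutation p = 0.2, adjusted over the 6 pairs tested 0.6). The value of transgenic 1 lay among the wild-type values, so the genotypes overlapped. With 3 mice against 3 this test cannot give a p below 0.1.

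Rpl36al and Rpl36a were the pair in which the ratio did not overlap, with -5.52, -5.72 and -5.55 in wild-type and -5.84, -5.79 and -6.03 in transgenic mice (exact two-sided permutation p = 0.1, the smallest possible, adjusted 0.6). Rpl36al had 58, 42 and 46 counts in wild-type and 52, 45 and 38 in transgenic mice and lies mostly under another gene, as given above, so the ratio rests on few counts. Rpl36a itself rose from 62.6, 64.9 and 70.2 to 79.0, 80.7 and 81.9 CPM. Rpl7l1 was at 35.9, 35.5 and 37 CPM in wild-type and at 39.4, 38.6 and 38.6 CPM in transgenic mice (log2 fold change 0.10, adjusted p = 0.183, edgeR), and its parent Rpl7 at 169, 178 and 181 and at 191, 205 and 207 CPM (0.19, adjusted p = 0.0610, edgeR). Rpl7 passed with the GC trend removed (0.29, adjusted p = 0.0237, edgeR) and Rpl7l1 did not (0.13). Their ratio overlapped between genotypes, as did those of Rpl3l, Rps27l and Rps27rt to their parents.

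**Figure D4:**
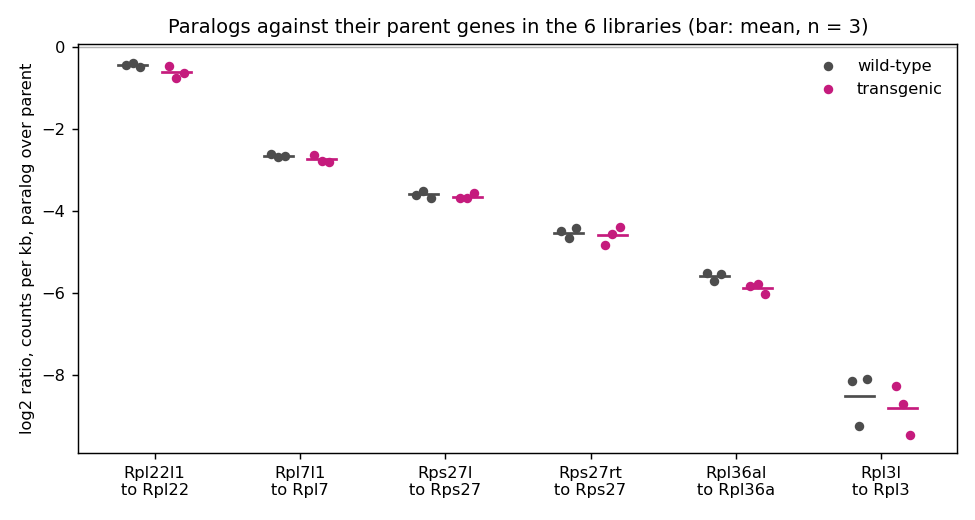
Log2 ratio of paralog to parent (counts + 0.5, per kb of deposited length) in each of the 3 wild-type (grey) and 3 transgenic (pink) libraries, with the mean as a bar, for the 6 pairs tested. Rpl22l1 lies closest to its parent, with a wild-type mean of -0.44, and Rpl3l farthest below, with -8.50; only Rpl36al shows no overlap between genotypes.

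Rps27 has 2 relatives among the members, and their sequences set how well the counts tell them apart. The coding sequences of Rps27 (chr3:90212522-90213651, minus strand, GRCm38) and Rps27l (chr9:66946086-66949516, plus strand) are shown from the GENCODE M21 transcripts, spliced, with the bases that differ in capitals. They were chosen because both are transcribed in these libraries and are the same length.
Rps27: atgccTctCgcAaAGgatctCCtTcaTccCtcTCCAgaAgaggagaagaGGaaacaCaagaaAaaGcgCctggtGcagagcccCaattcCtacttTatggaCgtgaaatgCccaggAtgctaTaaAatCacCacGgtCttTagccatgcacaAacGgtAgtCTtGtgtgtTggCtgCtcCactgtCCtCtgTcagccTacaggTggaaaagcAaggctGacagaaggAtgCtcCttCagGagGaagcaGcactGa
Rps27l: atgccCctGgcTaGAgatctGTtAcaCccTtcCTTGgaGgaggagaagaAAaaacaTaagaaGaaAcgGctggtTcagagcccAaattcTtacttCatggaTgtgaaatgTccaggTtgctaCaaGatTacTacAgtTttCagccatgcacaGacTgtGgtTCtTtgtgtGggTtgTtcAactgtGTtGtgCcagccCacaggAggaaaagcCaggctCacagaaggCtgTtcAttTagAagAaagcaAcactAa
They agree in 194 of 255 aligned bases (76.1%), and 61 differ. Only 11.6% of the 76-base windows of Rps27l occur in a transcript of another gene. The retrogene Rps27rt (chr9:114982366-114982739, minus strand) has the coding sequence of Rps27 unchanged over all 255 bases, 90.3% of its windows are shared, and fragments from these genes cannot be told apart within the coding part.

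Rps27 was at 123, 134 and 134 CPM in wild-type and at 155, 151 and 149 CPM in transgenic mice (0.22 ± 0.05, adjusted p = 0.0459, and 0.0843 with the GC trend removed, edgeR). Rps27l, a target of p53 in other settings, was at 7.83, 9.17 and 8.16 and at 9.41, 9.04 and 9.75 CPM (0.16 ± 0.09, adjusted p = 0.281, edgeR), with overlapping groups. In the fit without the GC trend Rps27l had a log2 fold change of 0.34 (adjusted p = 0.124, edgeR), above the 0.19 of Rps27. In wild-type mice Rps27, most of whose windows are shared, was 12.2-fold above Rps27l per kb of deposited length and 22.5-fold per kb of mRNA. Rps27rt had 102, 79 and 84 counts in wild-type and 90, 87 and 94 in transgenic mice. The log2 ratio to Rps27 differed between genotypes by -0.05 for Rps27l (exact two-sided permutation p = 0.6) and by -0.07 for Rps27rt (exact two-sided permutation p = 0.7).
Over the remaining pairs, coding sequences shared 56.9% (Rpl7l1), 70.2% (Rpl22l1), 73.9% (Rpl3l), 84.8% (Rpl10l), 85.3% (Rpl39l) and 87.9% (Rpl36al) of aligned bases with the parent.

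Features that the choice of genes did not use were set beside the change, over the 77 members that are not paralogs, of which 57 had a promoter entry. Genes with a pyrimidine tract within 5 bases of the start rose in 20 of 26 cases (median log2 fold change 0.25), and those without one in 23 of 31 (0.24). CCGGAAG in the promoter went with 20 of 23 genes (0.25), and its absence with 23 of 34 (0.24). Of all genes tested 3.1% were higher. The counts by tract depended on the fit, with 8 of 26 and 18 of 31 when the GC trend was removed, where 0.844% of all genes were higher, and 6 of 26 and 10 of 31 when the length trend was removed (2.13%). For CCGGAAG these were 11 of 23 and 15 of 34, and 5 of 23 and 11 of 34. No difference between these classes was tested. Among the 30 genes that hold a snoRNA gene, 58 snoRNA genes in all, 24 rose (0.24), as did 35 of the 47 others (0.26), and with the GC trend removed 18 of each class did. Of members with under 25% of their windows shared, 12 of 12 rose (0.26), with 36 of 48 between 25% and 75% (0.25) and 11 of 17 at 75% or more (0.23). With the GC trend removed these were 10, 19 and 7, and with the length trend removed 5, 12 and 4.

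The change was also set beside gene length and GC content. As a description over the 77 genes, which share the same 6 libraries, the log2 fold change had a Spearman rho of 0.338 with GC content and -0.378 with deposited length. Over all genes tested the values were 0.391 and -0.166. Members had a median GC content of 51.9% and a median deposited length of 1770 bases, against 49.9% and 3730 bases over all genes tested. When the trend on GC content was removed from each library, 36 of 83 members were higher with an adjusted p under 0.05, where 0.844% of all genes were, and the median member log2 fold change was 0.24. When the trend on length was removed, 21 were higher, where 2.13% of all genes were, with a median of 0.20. Both corrections lowered the counts of members called by more than 1.5 times, and in both the members' median stayed above 0.

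Some ribosomal proteins have symbols that the rule does not catch. Of these, Fau, the precursor of Rps30, had a log2 fold change of 0.34 (adjusted p = 0.0271, edgeR) and Rack1, a scaffold on the small subunit, one of 0.24 (adjusted p = 0.0264, edgeR). With offsets for GC content Fau no longer passed (log2 fold change 0.24, adjusted p = 0.0806, edgeR), while Rack1 did (0.25, adjusted p = 0.0308, edgeR). With the GC and the length trend removed 3 and 2 of 16 other mRNAs with a TOP tract, mainly translation factors, were higher, where 0.844% and 2.13% of all genes were. In the main fit 5 of the 16 rose and 0 fell, with a median of 0.10, where 3.1% of all genes tested were higher. They were led by Eif3f (0.31, adjusted p = 0.0143, edgeR) and Eef1d (0.29, adjusted p = 0.0206, and 0.0511 with the GC trend removed, edgeR), while the lowest unadjusted p among those below 0 belonged to Hnrnpa1 (-0.09) and Npm1 (-0.06), which did not pass.

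Genes that build or regulate ribosomes were read against the 3.1% of all genes tested that were higher. Of 30 assembly factors 2 (6.67%) rose, Bop1 (0.28, adjusted p = 0.0212, and 0.0784 with the GC trend removed, edgeR) of large subunit processing and Emg1 (0.24, adjusted p = 0.0366, edgeR), an 18S rRNA methyltransferase, and 0 fell, with a median of 0.05. Riok2 (-0.22) and Nmd3 (-0.23) had values below 0 without passing. Among 8 chaperones that escort single ribosomal proteins 0 passed (median 0.07, 2 with an unadjusted p under 0.05, Zfp622 and Aamp), and DESeq2 and limma-voom called 0. Among 12 genes of RNA polymerase I transcription 0 passed (median 0.08, 3 with an unadjusted p under 0.05, all higher, led by Taf1c at 0.30 and Polr1b at 0.28, while Polr1a had -0.21), where DESeq2 called 3 and limma-voom 0. Of 13 genes of the mTOR axis 0 passed (median 0.07, 5 with an unadjusted p under 0.05, 1 called by DESeq2 and 0 by limma-voom), and Akt1s1 had 0.20, Mlst8 0.19, Rps6kb1 -0.11 and Rheb -0.11. The medians of these lists lay between that of all genes and that of the members.

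**Figure D5:**
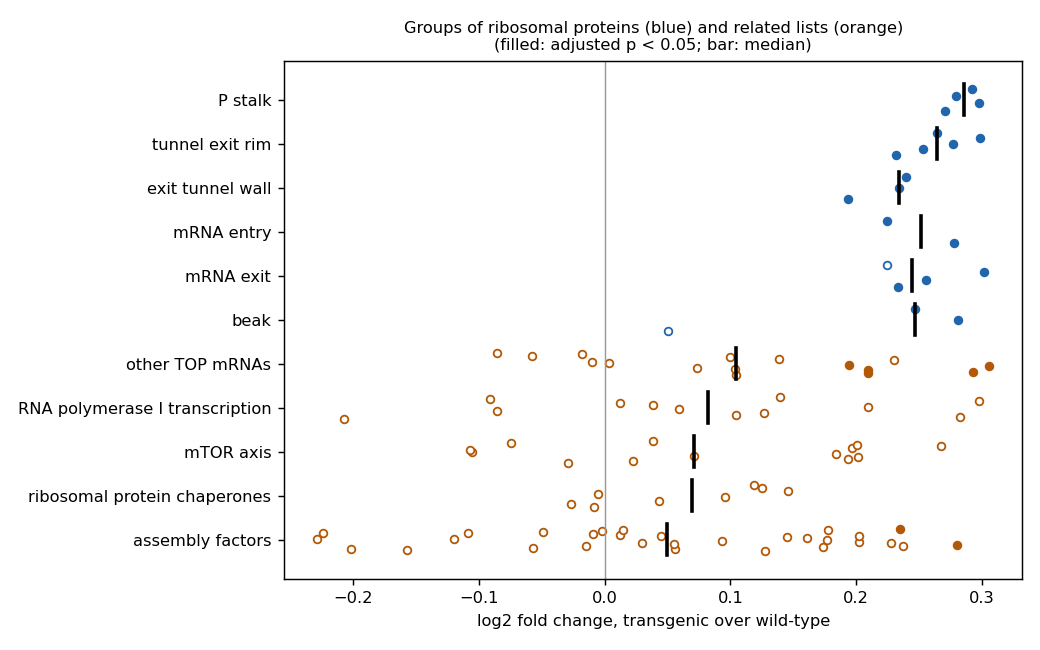
Log2 fold change of each gene in 6 groups of ribosomal proteins (blue) and 5 related lists (orange), filled where the adjusted p was under 0.05, with the median as a bar. The groups of ribosomal proteins have medians between 0.23 and 0.29, and the related lists have medians between 0.05 and 0.10.

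Markers of other cell types that a dissected hippocampus could hold were set beside the members. All 16 markers of choroid plexus epithelium were lower in transgenic mice (median log2 fold change -2.75), and their summed level was 3933 to 6083 CPM in wild-type and 559 to 873 CPM in transgenic libraries, with none at 0. Ependymal markers were at 23.0 to 35.5 CPM and 14.1 to 22.5 CPM, with 0 of 3 passing. Of the other lists 1 of 8 neuronal (Slc17a7) and 1 of 4 endothelial markers (Cldn5) rose, where 3.1% of all genes tested did. Neither passed with the GC trend removed (adjusted p = 0.110 and 0.106, edgeR). With the length trend removed 1 neuronal and 0 endothelial markers were higher. Of 5 astrocyte, 6 microglial, 5 oligodendrocyte and 3 tested erythrocyte markers 0 passed. The median log2 fold change was 0.32 for microglial (5 of 6 above 0), 0.16 for endothelial (4 of 4) and 0.11 for oligodendrocyte markers (4 of 5). It was 0.02 for neuronal and for astrocyte, -0.27 for erythrocyte and -0.66 for ependymal markers. An unadjusted p under 0.05 was seen for 2 ependymal and 2 microglial markers (DESeq2 called 2 and 1 of these, limma-voom 0) and for 0 of the astrocyte, oligodendrocyte and erythrocyte markers, of which DESeq2 and limma-voom called 0. The choroid plexus levels moved with genotype, and the summed neuronal levels, though close, did not overlap between genotypes. What part any of these lists has in the members' change was not tested.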

How the data were processed

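Reads were trimmed with Trimmomatic and aligned to mm10 with STAR, and the authors deposited counts of fragments per gene from featureCounts 1.5.0-p1 (strand setting 2, mapping quality of at least 3, Ensembl 95), not normalized, with exonic lengths. Symbols came from GENCODE M21, which held 54809 of 54838 gene identifiers. The members and lists were chosen with earlier results of these data known. Genes were filtered by filterByExpr (minimum count 10), scaled by TMM and tested with edgeR 4.0.16 (quasi-likelihood, no covariates, adjusted p under 0.05 over all genes tested) in R 4.3.3. DESeq2 1.42.0 and limma 3.58.1 were alternatives. Paralog ratios used counts + 0.5 and exact permutation tests over the libraries. GC content was taken over annotated transcripts, since no genome was used here. GC and length trends were removed by loess (span 0.5). The fits were tested on simulated data. P-values measure the spread between 3 mice per genotype, and the limit of 3 counts allowed by a count of 0 covers counting error only. Named genes were all paralogs with parents, the 3 highest and lowest members of each subunit in level and in change, the role groups, and in other lists the 2 of smallest p in each direction. Promoters came from RefSeq (GRCm38.p6). Python 3.11.15 was used for tables and drawing. A few genes covered by these rules are not reported here.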

Additional observations from a re-analysis of the deposited data

How the results depend on the processing

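Members called higher in transgenic mice numbered 54 to 70 under the other scalings, tests and filters, and no fit called a member lower. DESeq2's Wald test called 1055 genes higher and 1175 lower over the whole table. With the GC trend removed 36 members were called, 33 of them among the 59, with 161 genes higher and 246 lower over the table. With the length trend removed 21 members were called, all among the 59, with 406 genes higher and 372 lower, and the large subunit median log2 fold change was 0.20. With the mice left out in turn, members called higher ran from 0 to 50, genes higher from 11 to 466 and genes lower from 66 to 683, and the large minus small subunit median from -0.00418 to 0.0226. The sign of that difference between subunits was not constant, being also below 0 with the GC trend removed (-0.00444), with the block added to that (-0.000543) and with the length trend removed (-0.000628).

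The numbers 1 to 3 name mice of both genotypes, and nothing ties 2 mice of the same number together. The correlations of their deviations ran from -0.357 to 0.399, and wild-type 2 and 3 correlated best with another number, so no pairing was assumed. With the replicate number as a block, 33 members were called higher (1.38% of all genes), with 263 genes higher and 475 lower over the table, and with the block and the GC trend removed together 28 members, with 148 genes higher and 314 lower.

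Among the members named, signs turned for Rpl36al, Rpl3l, Rpl22l1 and Rps10, and among the 6 paralog ratios for 2. Rpl36al had a log2 fold change of 0.00654 with DESeq2's size factors, 0.0064 with DESeq2's Wald test, 0.00338 with limma-voom, 0.00929 with no filter and 0.0108 with 10 counts in every library, and with mice left out it ran from -0.0544 to 0.0734. With mice left out, Rpl3l ran from -0.461 to 0.133, Rpl22l1 from -0.0110 to 0.0893 and Rps10 from -0.0524 to 0.137. Rpl22l1 had -0.0164 with the length trend removed, and Rps10 -0.0387 with the GC trend removed and -0.0409 with the block added to it. The difference between genotypes in the log2 ratio to the parent ran from -0.692 to 0.00416 for Rpl3l and from -0.166 to 0.0508 for Rps27rt. The causes were not tested. Counting limits the precision of Rpl3l, Rpl36al, Rps27rt and Rps10.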
